A study of Arabidopsis thaliana with 8 samples.

Results

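LTP3 (AT5G59320) and LTP4 (AT5G59310) are neighbouring Arabidopsis thaliana genes for small secreted lipid transfer proteins, and they are read here by probe sets 247717_at (LTP3) and 247718_at (LTP4), 2 of the 22810 on the Affymetrix ATH1 array. Both were selected on measured values of these same arrays, and which values were used is not recorded. The drought contrasts are treated as used, so the levels and drought differences below only describe the pair, and no test of drought is given for it. The probe table used here lists 0 of the 2 probe sets, so their gene names rest on the definition of the pair and could not be checked against an annotation. No coordinates are given, because the files name no genome build; the RefSeq gene table for TAIR10.1 places both genes on chromosome 5 with no gene between them.

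Type 1 lipid transfer proteins are small and basic, are exported to the cell wall, and hold a lipid in a pocket framed by disulfide bonds. In leaves they are mainly products of the epidermis and are linked to the cuticle, the layer of cutin and wax that limits water loss. LTP3 and LTP4 are both known as genes induced by drought and by abscisic acid (ABA), and LTP3 is a known target of MYB96, an ABA-responsive transcription factor that also activates wax synthesis genes.

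RNA came from rosette leaves of soil-grown plants under long days, in 4 groups of 2 biological replicates with 1 array each. The groups are dor under drought, wild type (WT) under drought, dor under control watering, and WT under control watering. WT is the Columbia accession, and dor is 1 SALK T-DNA insertion line in Columbia, also called S29 in the labels; DOR itself codes for an F-box protein. Drought plants had 24 days of watering and then 10 days without irrigation, and control plants were watered throughout their 34 days; whether plants were pooled is not stated, and p values measure only the spread between these samples. Signals are the authors' MAS5 intensities on a linear scale, and differences are given on the log2 scale.

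The DOR probe set itself read 2.3 to 21.4 on all 8 arrays, too low to check the genotype labels. Of the leaf markers, RCA, which codes for Rubisco activase, read 9383 to 36420, and the root marker PYK10 read 8.3 to 192.2. The stomatal lineage gene FAMA, an epidermal marker, read 153 to 476.5, and the pollen-related flower marker AGL65 read 79.5 to 224.3. No seed marker of the list had a named probe set. Fewer cells of a type and less RNA per cell cannot be told apart in such whole-leaf samples.

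LTP3 was high in every droughted sample. Its signal was 25326 and 32385 in dor drought replicates 1 and 2, 16262 and 26259 in WT drought, 1259 and 1209 in dor control, against 313.7 and 268.1 in WT control. Ordered by geometric mean, the groups run from dor drought (28639) through WT drought (20665) and dor control (1234) to WT control (290.0). The 2 drought groups overlap, while each other step in this order separates groups whose arrays do not overlap. Within each array, LTP3 was brighter than 99.4% to 99.97% of all probe sets under drought, against 86.8% and 88.3% in dor control and 58.6% and 70.6% in WT control.

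LTP4 followed the same order with more spread between replicates. It read 20888 and 11960 in dor drought, 1088 and 6151 in WT drought, 867.2 and 407.9 in dor control, against 89.8 and 41.9 in WT control. None of these groups overlap, although WT drought replicate 1 (1088) came close to dor control replicate 1 (867.2). The replicates differed 5.65-fold in WT drought, 2.13-fold in dor control and 2.14-fold in WT control. For LTP3 the largest such ratio was 1.61-fold, in WT drought. The WT control signals of LTP4 lay at 1.51 and 0.469 times the 40th percentile of their arrays, a level near background, so LTP4 differences against this group depend on how low signals are treated.

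**Figure D1:**
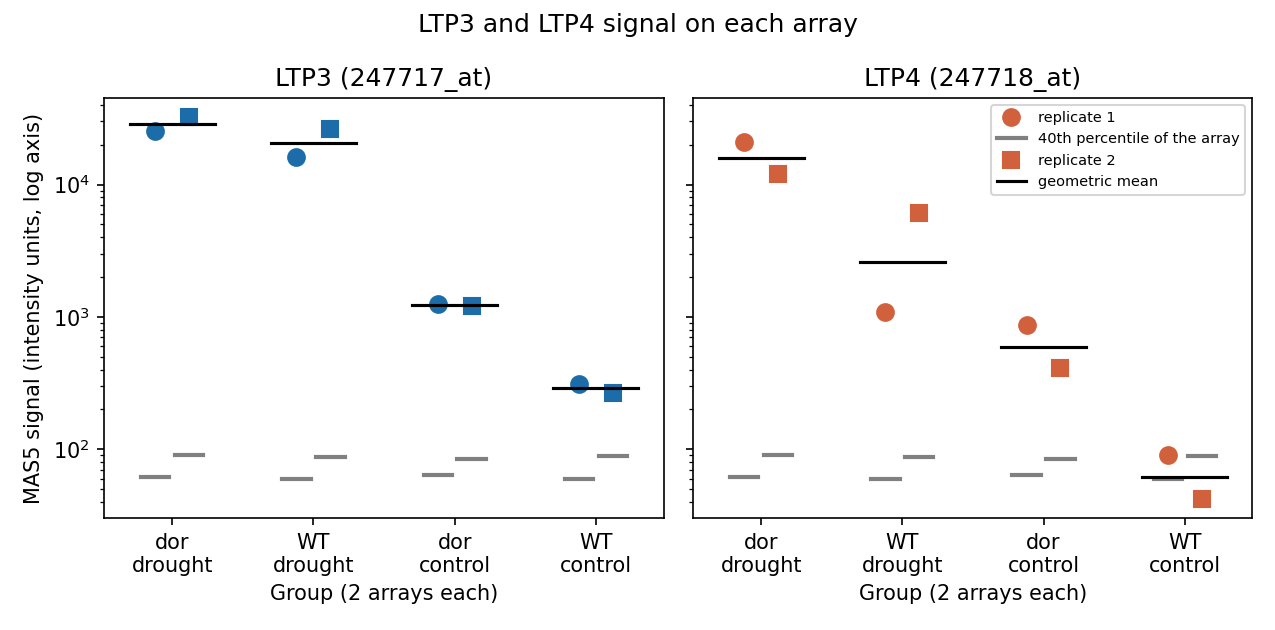
MAS5 signal of LTP3 (left) and LTP4 (right) on each array, on a log axis; circles are replicate 1, squares replicate 2, black lines the geometric mean of a group and grey bars the 40th percentile of each array. Both genes run from dor drought down to WT control, and the 2 WT drought values of LTP4, 1088 and 6151, lie farthest apart.

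The drought differences of the pair, treated here as used in its choice, were large in both genotypes. In dor, LTP3 was 23.2-fold higher under drought than under control watering (log2 difference 4.54), and LTP4 was 26.6-fold higher (4.73). In WT, LTP3 was 71.3-fold higher (6.15) and LTP4 was 42.2-fold higher (5.40). With signals under the 40th percentile of an array raised to that percentile, the LTP4 difference in WT was 4.85 and the other 3 were as before. Drought and control arrays did not overlap for either gene in either genotype. Among all 15523 tested probe sets, 26.5% were higher without overlap in dor and 22.9% in WT; since this contrast may have chosen the pair, nothing is read from these shares.

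Differences were also taken between arrays of the same replicate number. In dor, drought minus control was 4.33 and 4.74 for LTP3 in replicates 1 and 2, and 4.59 and 4.87 for LTP4. In WT it was 5.70 and 6.61 for LTP3, and 3.60 and 7.20 for LTP4. Matched in this way, the 4 dor values lie between 4.33 and 4.87, and the LTP4 values in WT lie far apart. Drought and control arrays are matched by number only, and deviations of same-numbered arrays correlated at just -0.036 to 0.053 across conditions. Another matching would give other values, so the small dor spread is not read as a steadier response. The LTP4 signal itself differed 1.75-fold between replicates in dor drought and 2.13-fold in dor control. On WT drought replicate 1, LTP3 stood at 16262 while LTP4 stood at 1088, and on dor drought replicate 1 they stood at 25326 and 20888, so the 2 probe sets did not move in step on every array. Cross-hybridisation between these related genes was not tested, as the probe sequences were not used here.

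Measures of tissue and RNA quality moved with drought in some groups. The summed signal of the 4 leaf markers with a named probe set, of 8 listed, was 11949 and 40958 in dor drought and 54748 and 53662 in WT drought, against 82484 and 65942 in dor control and 81991 and 49050 in WT control. Ubiquitin signal from the middle of the transcript over that from its 3′ end, which follows how intact the RNA is, was 0.430 and 0.437 in dor drought and 0.632 and 0.546 in WT drought, against 0.174 and 0.331 in dor control and 0.184 and 0.405 in WT control. The leaf sum was lower under drought without overlap in dor and overlapped in WT, and the ubiquitin ratio was higher under drought without overlap in both genotypes. The ratio of 5′ to 3′ actin signal was 0.370 and 0.382 in dor drought, against 0.245 and 0.366 in dor control. In WT it was 0.389 and 0.497 under drought, against 0.229 and 0.575 under control watering. This other measure of RNA integrity was thus higher under drought without overlap in dor and overlapped in WT. The 2 flower markers with a named probe set, of 6 listed, summed to 307 and 251.1 in dor drought and 317.8 and 173.2 in WT drought, against 128.3 and 127.9 in dor control and 100.8 and 186.9 in WT control. This sum was higher under drought without overlap in dor and overlapped in WT. The part of these measures in the drought differences was not tested.

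**Figure D2:**
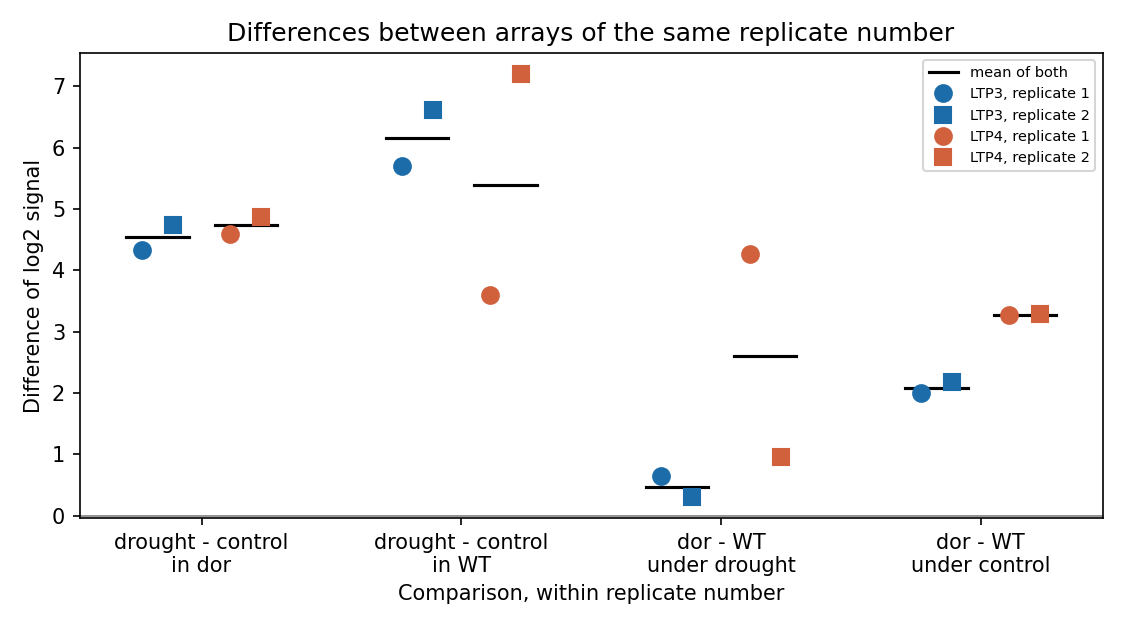
Log2 difference between 2 arrays of the same replicate number for 4 comparisons; blue is LTP3, orange is LTP4, circles are replicate 1, squares replicate 2 and black lines the mean of both. The dor minus WT values under control watering nearly coincide between replicates (2.00 and 2.17 for LTP3, 3.27 and 3.28 for LTP4), while those of LTP4 in WT or under drought spread by over 3 log2 units. Arrays are matched by number alone, and another matching would give other values.

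Whether differences between the genotypes also played a part in the choice of the pair is not recorded, so the p values of the genotype comparisons below are no independent support. Under control watering both genes read higher in dor than in WT, but neither difference passed the test over all probe sets. LTP3 averaged 1234 ± 35.8 in dor control and 290.9 ± 32.2 in WT control (SD, n = 2 each), a log2 difference of 2.09 ± 0.50 (SE) with a 95% interval of 0.95 to 3.22, or 4.25-fold. LTP4 averaged 638 ± 325 in dor control and 65.9 ± 33.9 in WT control (SD, n = 2 each), a log2 difference of 3.28 ± 0.89 with an interval of 1.24 to 5.32, or 9.70-fold. The intervals are for single genes and are not adjusted for the number of probe sets.

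In this comparison limma gave an unadjusted p of 0.00269 for LTP3 and 0.00576 for LTP4, and an adjusted p of 1.00 for both. By p, LTP3 ranked 1 and LTP4 ranked 4 among the 15523 tested probe sets. At the adjusted threshold of 0.05 limma called 0 of them (0%). An unadjusted p under 0.05 was reached by 71 in either direction (0.457%), 37 of them higher in dor, and 7.57% of all tested were higher in dor with no overlap between the groups. In all, 93 probe sets (0.599%), LTP3 among them, were higher without overlap by at least the LTP3 difference, and 21 (0.135%), LTP4 among them, by at least that of LTP4. Each threshold is the gene's own difference, which may have played a part in its choice, so nothing is read from either share.

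Matched by replicate number, these control differences were nearly alike. The labels give no ground for this matching beyond the number. Deviations of same-numbered control arrays correlated at 0.594 between genotypes, which the fit to group means leaves out. With the arrays sharing a condition and a number as a random block, limma gave unadjusted p values of 7.54e-05 for LTP3 and 0.000716 for LTP4. The adjusted p was 0.999 for both, and 0 probe sets were called. The LTP4 signal itself differed 2.13-fold between replicates in dor control and 2.14-fold in WT control. Replicate 1 gave 2.00 for LTP3 and 3.27 for LTP4, and replicate 2 gave 2.17 and 3.28. With low signals raised to the 40th percentile the LTP4 difference was 2.73, and that of LTP3 stayed at 2.09. The ratio of 5′ to 3′ actin signal was 0.245 and 0.366 in dor control, against 0.229 and 0.575 in WT control, so this measure of RNA integrity overlapped between the genotypes. In each group 1 of the 2 labels names the RNAplant reagent for RNA extraction and the other does not, so this wording does not run with genotype. The flower marker LAT52-like read 48.8 and 10.5 in dor control, against 6.3 and 8.1 in WT control, so it too was higher in dor without overlap. Each of these values lay under the 40th percentile of its array, near background. AGL65, the other flower marker read here, was 79.5 and 117.4 in dor control, against 94.5 and 178.8 in WT control, with overlap. LAT52-like is named here after its values were seen, and the part of these markers was not tested.

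Under drought the genotype difference passed the test for neither gene. LTP3 averaged 28855 ± 4992 in dor and 21261 ± 7069 in WT (SD, n = 2 each), a log2 difference of 0.47 ± 0.50 (SE) with an interval of -0.67 to 1.61, and its groups overlap. LTP4 averaged 16424 ± 6313 in dor and 3620 ± 3580 in WT (SD, n = 2 each), a log2 difference of 2.61 ± 0.89 with an interval of 0.57 to 4.65, or 6.11-fold. limma gave adjusted p values of 1.00 for both, with unadjusted p values of 0.369 for LTP3 and 0.0180 for LTP4. The LTP4 groups do not overlap, but the difference was 4.26 in replicate 1 and 0.96 in replicate 2. Without WT drought replicate 1 it was 1.36, and without WT drought replicate 2 it was 3.86.

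Under drought, measures of RNA quality and leaf tissue were lower in dor than in WT without overlap. The 5′ to 3′ actin ratio was 0.370 and 0.382 in dor drought, against 0.389 and 0.497 in WT drought. The ubiquitin ratio was 0.430 and 0.437 in dor drought, against 0.632 and 0.546 in WT drought, and the leaf marker sum was 11949 and 40958 in dor drought, against 54748 and 53662 in WT drought. LAT52-like read 115.6 and 87.1 in dor drought, against 93.5 and 10.5 in WT drought, with overlap. The part of these measures in the LTP3 and LTP4 differences was not tested.

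Of the tested probe sets limma called 0% under drought at the adjusted threshold. An unadjusted p under 0.05 was reached by 492 (3.17%), 171 of them higher in dor, and 15.1% of all tested were higher in dor without overlap. When the 2 arrays that share a condition and a number formed a random block, limma called 22 probe sets, and neither LTP3 (adjusted p = 0.603) nor LTP4 (adjusted p = 0.162) was among them.

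Over both conditions, the additive model gave dor minus WT differences of 1.28 ± 0.41 for LTP3 and 2.94 ± 0.59 for LTP4, or 2.43-fold and 7.70-fold. LTP4 was higher in dor in each of the 4 comparisons of arrays with the same condition and replicate number, and so was LTP3. The share of all tested probe sets that did so was not counted, so nothing is read from this. By limma LTP4 ranked 1 by p (unadjusted p = 0.000751) and LTP3 ranked 50 (unadjusted p = 0.0124), and the adjusted p was 1.00 for each. This comparison called 0% of the probe sets at the adjusted threshold. An unadjusted p under 0.05 was reached by 308 (1.98%), 156 of them higher in dor.

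The drought response itself was smaller in dor for LTP3 in these samples, without passing the test. The difference of the drought responses, dor minus WT, was -1.62 ± 0.70 for LTP3 with an interval of -3.22 to -0.01, and -0.67 ± 1.26 for LTP4 with an interval of -3.55 to 2.22. limma gave unadjusted p values of 0.0488 and 0.610 and an adjusted p of 1.00 for both. It called 0% of the probe sets at the adjusted threshold, and 185 (1.19%) reached an unadjusted p under 0.05, 106 of them with a lower value in dor. Without WT drought replicate 2 the LTP4 value turned to 0.58. For LTP3, the levels show that the 2 genotypes differed 4.25-fold under control watering and 1.39-fold under drought.

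**Figure D3:**
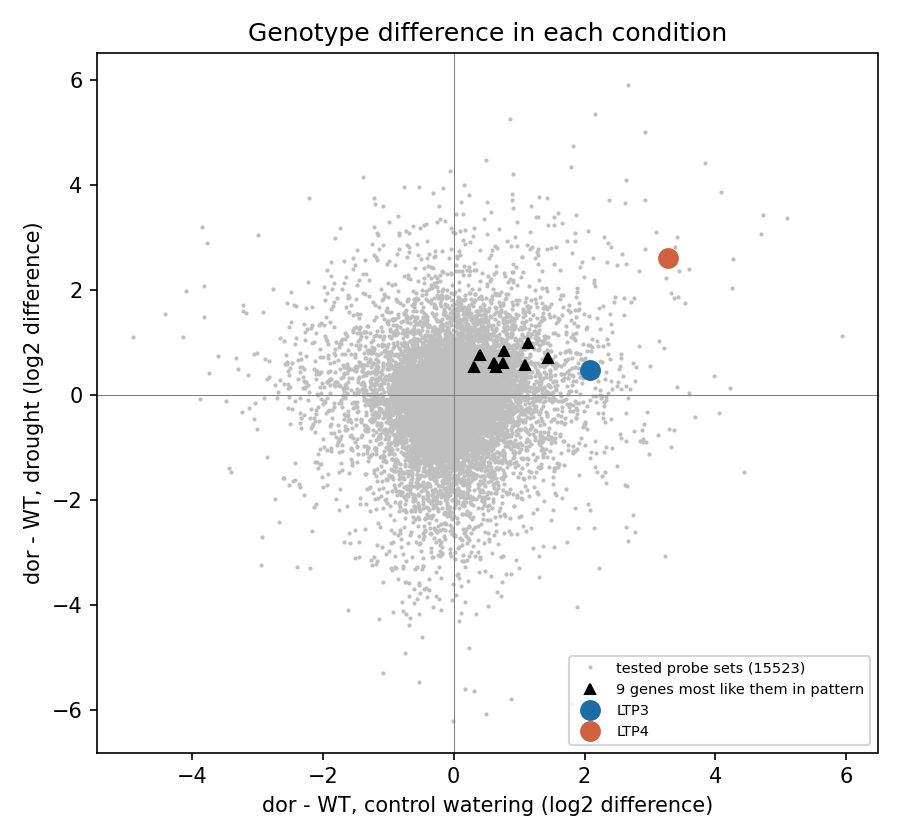
Log2 difference dor minus WT under control watering (x axis) and under drought (y axis) for the 15523 tested probe sets (grey), LTP3 (blue), LTP4 (orange) and the 9 named genes closest to them in pattern (triangles). LTP4 lies far out on both axes at 3.28 and 2.61, and LTP3 on the x axis only, at 2.09 and 0.47.

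LTP3 and LTP4 resembled each other across the 8 arrays with a Pearson r of 0.934 on the log2 scale. The arrays behind this r share condition, genotype and replicate number, and many probe sets were as close: 82 lay closer to LTP3 than LTP4 did, and 49 lay closer to LTP4 than LTP3 did. Among the 8459 tested probe sets with 1 named gene, the closest to LTP3 were AT3G63050 (r = 0.988), SAG29 (r = 0.977), AT5G61820 (r = 0.975), AtS40-3 (r = 0.974) and CuAO1 (r = 0.974). SAG29 codes for a sugar transporter that rises in senescing leaves, AtS40-3 for a regulator of senescence, and CuAO1 for a copper amine oxidase.

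The closest to LTP4 were SAT32 (r = 0.978), AT5G61820 (r = 0.976), MGL (r = 0.970), AT3G62260 (r = 0.966) and AT3G11420 (r = 0.959). SAT32 is known from salt tolerance, and MGL codes for methionine gamma-lyase. AT5G61820, the 1 gene close to both, read 15661 and 12974 in dor drought, 7701 and 11262 in WT drought, then 4358 and 4190 in dor control, against 2976 and 2636 in WT control. It has the same order of groups as LTP4 with a smaller range.

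All 9 of these genes also read higher in dor than in WT in both conditions. Their dor minus WT differences were 0.31 to 1.44 under control watering and 0.53 to 0.99 under drought, on the log2 scale. They were picked for their likeness to LTP3 or LTP4 over these arrays, so the shared direction is a description. Both LTP genes exceeded all 9 under control watering, at 2.09 and 3.28. The drought differences of the 9 ran from 1.01 to 7.86 in dor and from 0.79 to 8.59 in WT.

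**Figure D4:**
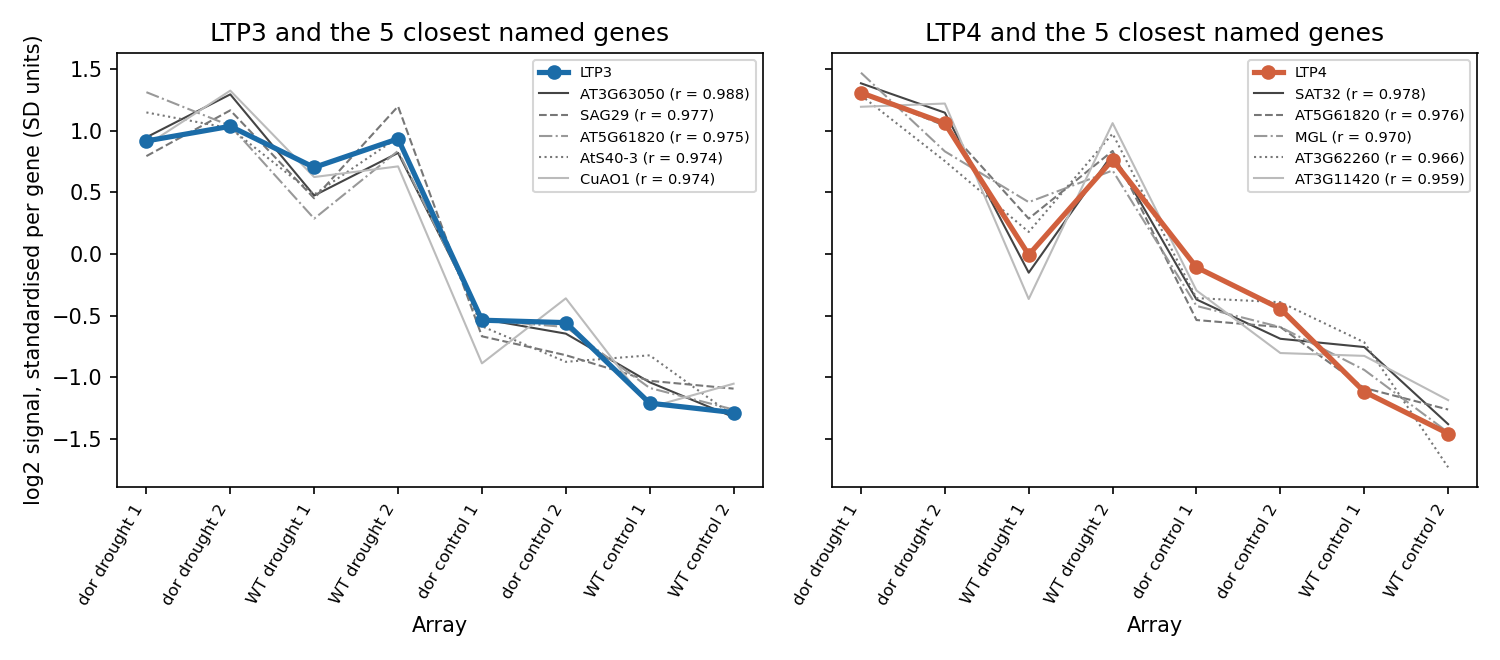
Log2 signal on each of the 8 arrays, centred and divided by the SD of each gene, for LTP3 (left, blue) and LTP4 (right, orange) with the 5 named genes of highest Pearson r (grey, r in the legend). In both panels the lines drop from drought to control arrays, and LTP4 and its closest genes dip together on WT drought replicate 1.

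Relatives and cuticle genes were taken from lists of 106 loci, of which 29 had a named probe set and 20 were tested. In dor, 2 of the 20 were called higher under drought and 1 lower, against 0.316% and 0.251% of all tested probe sets. In WT, 0 were called in either direction, against 0.00644% called higher and 0% lower. By limma, 5 of the 20 had an unadjusted p under 0.05 in WT, beside 1482 of all tested probe sets (9.55%). Over both genotypes, in the fit with a random block, 2 were called higher and 1 lower, against 0.0580% and 0.0193%. The median drought difference of the 20 was 0.30 in dor and -0.28 in WT, beside 0.17 and 0.16 over all tested probe sets. Single members ran from -8.09 to 6.88 in dor.

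Of 13 other type 1 LTP genes, 4 had a named probe set. LTP8 was the 1 that passed the filter on low signals, and it read 71.5 and 62.6 in dor drought, 23.6 and 41.9 in WT drought, 12.4 and 68.5 in dor control, against 72.8 and 44.3 in WT control. Its drought difference was 1.20 ± 1.08 in dor (limma adjusted p = 0.617) and -0.85 ± 1.08 in WT (adjusted p = 0.799), so no common direction was seen. LTP9, LTP10 and LTP15 did not pass the filter, and none of them read above 49.7 on any array. Among 15 genes for lipid transfer proteins anchored to the membrane by glycosylphosphatidylinositol, AT2G44300 alone was tested and differed by -0.38 ± 0.64 in dor (adjusted p = 0.802) and -0.42 ± 0.64 in WT (adjusted p = 0.842).

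The wider cysteine-rich lipid transfer family held the 3 calls in dor. AT3G53980 read 9659 and 4690 in dor drought, 3525 and 3173 in WT drought, 103.3 and 31.6 in dor control, against 126.7 and 60.6 in WT control. It rose by 6.88 ± 0.75 in dor (limma adjusted p = 0.0139), and its WT difference was 5.25 ± 0.75 (adjusted p = 0.125). AT2G37870 read 6238 and 9877 in dor drought, 1897 and 5328 in WT drought, 290.7 and 119.6 in dor control, against 108.3 and 109.7 in WT control. It rose by 5.40 ± 0.71 in dor (adjusted p = 0.0225), with 4.87 ± 0.71 in WT (adjusted p = 0.125). Like LTP3 and LTP4, both were highest in dor drought. Under control watering the dor minus WT difference was -0.62 ± 0.75 for AT3G53980 and 0.77 ± 0.71 for AT2G37870. AT2G37870 was thus higher in dor control without overlap, as were 7.57% of all tested probe sets. AT2G10940 read 21.4 and 9.3 in dor drought and 74.9 and 93.6 in WT drought, against 12892 and 1147 in dor control and 14314 and 8293 in WT control. It went the other way and fell by 8.09 on the log2 scale in dor (SE 1.05, adjusted p = 0.0225). All 3 were also called over both genotypes.

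AT4G33550, of the same family and named here after its values were seen, was not called but read higher in dor on average in both conditions, as LTP3 and LTP4 did. This is not particular to it: AT2G37870 and some other tested members of this family also did so, and the rest did not. It read 3726 and 4477 in dor drought, 901 and 1489 in WT drought, 297.4 and 163.2 in dor control, against 230.5 and 53.2 in WT control. Its drought difference was 4.21 ± 0.77 in dor (limma adjusted p = 0.0644) and 3.39 ± 0.77 in WT (adjusted p = 0.267). The dor minus WT difference was 1.82 ± 0.77 under drought and 0.99 ± 0.77 under control watering (adjusted p = 1.00 for each), and the control groups overlap.

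The number of list genes called in dor was 0 without dor drought replicate 1 or without both control arrays of replicate 1, and 1 without dor drought replicate 2 or without dor control replicate 1. Over both genotypes it was 0 without dor drought replicate 1, dor drought replicate 2 or WT control replicate 1, and 1 without WT drought replicate 1 or dor control replicate 1. In the main fits to all 8 arrays, none of the other 11 tested members of this family was called in dor, in WT or over both genotypes.

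The cuticle lists could be followed in a few genes only. DEWAX, a repressor of wax genes, differed under drought by 1.08 ± 1.20 in dor (limma adjusted p = 0.691) and 0.87 ± 1.20 in WT (adjusted p = 0.818). SHN3, an activator of cuticle genes, differed by 1.19 ± 1.45 in dor (adjusted p = 0.719) and 2.51 ± 1.45 in WT (adjusted p = 0.600). CER26, which acts in the elongation of wax precursors, differed by -4.27 ± 0.95 in dor (adjusted p = 0.104) and -1.26 ± 0.95 in WT (adjusted p = 0.669). WSD1, a wax ester synthase, differed by -1.07 ± 2.04 in dor (adjusted p = 0.825) and -1.52 ± 2.04 in WT (adjusted p = 0.814). None of these 4 passed the test, and no other listed transcription factor or wax enzyme was tested. The cutin and export lists had 0 genes with a named probe set, and MYB96 was not read here.

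**Figure D5:**
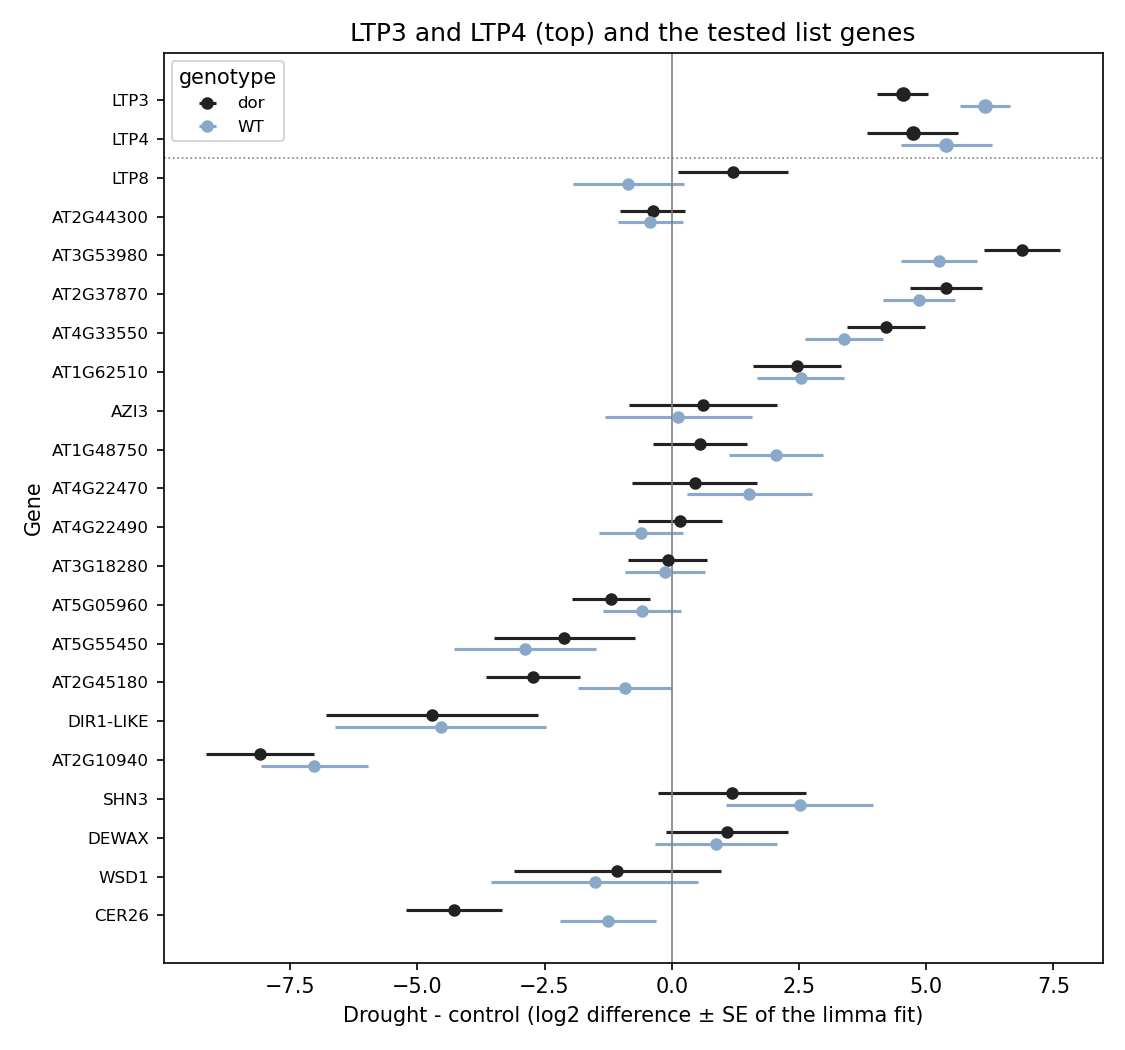
Drought minus control log2 difference in dor (black) and WT (blue) with the SE of the limma fit for LTP3 and LTP4 (above the dotted line, given as a description) and the 20 tested list genes. In dor, AT3G53980 lies at 6.88, AT2G37870 at 5.40 and AT4G33550 at 4.21, beside LTP3 at 4.54 and LTP4 at 4.73, and the other 17 list genes lie between -8.09 and 2.46.

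The neighbouring genes that could be read lay near background. AT5G59305, next to LTP4, read 2.8 to 8.1 on the 8 arrays, and AT5G59330, next to LTP3, read 3.3 to 55.2. Neither reached the 40th percentile on any array, so neither was tested. The other 4 of the 6 neighbours in the gene table, among them UBC7 and WOX2, had no named probe set here.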

How the data were processed

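Biotin-labelled cRNA from rosette leaf RNA was hybridised to 8 ATH1 arrays. The deposited values are intensities, 1 linear MAS5 signal per probe set and array, made with GCOS and MAS5 per the submitters' processing notes, with versions not stated. The arrays as deposited share a mean of about 500 after trimming 2% at each end, and 0 columns were left out. Array number, 2 per group, limits the precision.

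Signals under 1 were set to 1 before log2 was taken. A probe set was tested if its signal reached the 40th percentile of an array on at least 2 arrays, without the 64 control probe sets, which left 15523 including both members. limma 3.58.1 in R 4.3.3 (lmFit, then eBayes with trend; two-sided tests) was fitted over all of them: 4 group means for single comparisons, and condition plus genotype for additive ones, where drought over both genotypes had the arrays sharing a condition and a number as a random block (consensus correlation 0.608). P-values were adjusted by Benjamini-Hochberg over all tested probe sets, with a threshold of 0.05. The pipeline was tested on simulated data. A probe table gave 1 gene for 13513 probe sets, 13436 of which matched the RefSeq gene table; the brightest tested probe set stood for a gene. Matplotlib 3.10.9 in Python 3.11.15 drew the figures.

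The members, lists, tests and alternatives were chosen with earlier results of these data known. List genes were named by rule: the 2 largest rises and falls among called members, or else the 2 brightest tested members; added to these were the 5 genes of highest Pearson r for each member, the neighbours, and the brightest tested marker of each tissue. AT4G33550, LAT52-like, LTP9, LTP10, LTP15, UBC7, WOX2 and MYB96 were named outside this rule. The planned search for promoter motifs was not run, as no sequence table was used here.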

Additional observations from a re-analysis of the deposited data

How the results depend on the processing

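The 8 genotype values of LTP3 and LTP4 (4 comparisons of each gene) were recomputed under 19 or 20 other settings. None passed an adjusted p under 0.05 in any setting, and 7 kept their direction in all. The exception was the LTP4 difference of drought responses, which ran from -1.92 to 0.58 when single arrays were left out. Filters, blocks, the intensity trend and fitting only the 4 arrays compared cannot move a difference in this balanced design. A direction could change only with another scaling of the arrays, another treatment of low signals, or arrays left out. Under control watering LTP3 stayed between 1.98 and 2.20 and LTP4 between 2.73 and 3.83; their ranks by p ran from 1 to 177 and from 1 to 390, and limma called 0 probe sets in each setting. The drought differences in WT ran from 5.81 to 6.50 for LTP3 and from 4.15 to 6.65 for LTP4 without single arrays.

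Calls among the 20 list genes depended on single arrays. In dor they ran from 0 to 4 without single arrays, and there were 0 without both controls of replicate 1. In WT they ran from 0 to 1, and there was 1 with only the 4 arrays compared. Over both genotypes they ran from 0 to 3 without single arrays, and there was 1 after median centring or with the stricter filter, 0 without the intensity trend, 0 without both controls of replicate 1, 5 with no random block and 7 with the replicate number as a fixed block. The cause was not tested.

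The labels tie samples of one replicate number by nothing but the number. Arrays of replicate 1 had median signals of 97.35 to 120.45 and those of replicate 2 of 163.35 to 170.75. Deviations of same-numbered samples correlated at 0.402 between genotypes under drought and 0.594 under control watering, but at -0.036 to 0.053 across conditions. A replicate block cannot change the control differences, 2.09 for LTP3 and 3.28 for LTP4, as each group holds an array of each number. The limma adjusted p values with this block were 1.00. Depth is not given for arrays; the WT control signals of LTP4, near background, limit its differences.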
